A study of Mus musculus with 9 samples.

Results

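The p53 target genes described here are 10 genes that the transcription factor p53 is known to switch on: Cdkn1a, Mdm2, Ccng1, Trp53inp1, Bax, Bbc3, Zmat3, Sesn2, Perp and Phlda3. They were found by their symbol in the deposited table of 28853 probe sets, and each of the 10 had 1 probe set. The table names 22360 genes in all. The cells were 3 kinds of mouse culture measured on 3 arrays each. D10 is a cell line derived from bone marrow on day 10 after transplantation of embryonic stem cells (ESCs), and D5 is a line derived in the same way on day 5. ESC is the line that was transplanted. It came from 3.5-day blastocysts of C57BL/6 mice carrying the Oct4/EGFP transgene OG2, which makes pluripotent cells fluoresce green, and the labels give all 9 samples this background. Green cells were sorted from the marrow of the recipient mice, and colonies were expanded on feeder cells, so D10 and D5 were selected for activity of the transgene. All 3 cultures were grown on feeders in ESC medium. The design text describes D10 and D5 as 1 line each, while the sample titles speak of cell lines and biological replicates. Whether the replicates are separate cultures is not stated. The p-values are therefore read here as covering the variation among samples of 1 line, which may be technical, and not among separate derivations.

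In unstressed cells p53 is kept scarce by Mdm2, a ubiquitin ligase that marks it for destruction and is itself a p53 target. After DNA damage the kinases ATM, ATR, CHK1 and CHK2 release p53 from this control, and it then raises genes that stop the cell cycle, repair DNA or start apoptosis. In mouse ESCs p53 is abundant, and it is known there for lowering pluripotency genes during differentiation as well as for responding to damage.

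Values are log2 intensities as the authors deposited them, and the number of arrays limits their precision. A level of 3.68 served as background (95th percentile of the probe sets for olfactory and vomeronasal receptors), and all 10 genes lay above it. D10 replicates 1 and 3 were the closest pair: their difference had an SD of 0.0686, and the 8 remaining same-group pairs had SDs of 0.154 to 0.201. Being under 0.5 times the lowest of those, replicates 1 and 3 were counted as 1 sample, so D10 has n = 2 and the other groups n = 3. Pou5f1 (Oct4), a pluripotency marker, averaged 10.44 in D10, 10.56 in D5 and 10.75 in ESC. All 10 pluripotency markers, Pou5f1 among them, had lower means in D10 and in D5 than in ESC. Of 16 blood cell markers, 13 in D10, 13 in D5 and 12 in ESC were below background, Ptprc (CD45) among them. Fibroblast markers separated the groups: the summed linear intensity of 20 of them ran from 8222 to 8490 in D10, 5922 to 6505 in D5 and 3508 to 3986 in ESC. Fap, a fibroblast surface protease, was below background in all 3 groups, and S100a4 in ESC too.

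In D10, 5 of the 10 p53 target genes were higher than in ESC, and none was lower, also at an unadjusted p under 0.05. These were Cdkn1a (1.95-fold), Ccng1 (1.53-fold), Perp (1.52-fold), Mdm2 (1.50-fold) and Phlda3 (1.40-fold). In D5, 3 of them were higher than in ESC: Mdm2 (1.49-fold), Cdkn1a (1.48-fold) and Perp (1.43-fold). Over all probe sets, 5.32% passed as higher in D10 against ESC and 2.36% in D5 against ESC; as lower, 3.33% and 1.5% passed. At an unadjusted p under 0.05, 10.4% of all probe sets were higher and 10.7% lower in D10, and 8.31% higher and 8.25% lower in D5. Of the 10 genes, 5 were higher and 1, Trp53inp1, was lower in D5 at this threshold. Trp53inp1, Bax, Bbc3, Zmat3 and Sesn2 passed in neither comparison. Between D10 and D5 none of the 10 passed. Without D10 replicate 2, which leaves D10 with 1 sample, 3 genes were higher in D10 than in ESC, and without any 1 of ESC replicates 1 and 3 or the D5 arrays, 1 gene was higher in D5. All calls are from limma at a threshold of 0.05, with p-values adjusted over the whole array by the Benjamini-Hochberg method. The fibroblast markers moved with these results, with 19 of 20 higher in D10 and 14 of 20 higher in D5 than in ESC. Their part in the changes of the p53 target genes was not tested. In a culture of mixed cells, fewer cells of a type and less RNA per cell cannot be told apart.

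Cdkn1a encodes p21, the inhibitor of cyclin-dependent kinases through which p53 halts the cell cycle. Its log2 intensity was 8.41, 8.10 and 8.45 on the D10 arrays, 7.88, 7.98 and 7.73 on the D5 arrays, and 7.18, 7.47 and 7.23 on the ESC arrays. The 3 groups did not overlap, with every D10 array above every D5 array and every D5 array above every ESC array. The difference between D10 and ESC was 0.97 (SE 0.14, adjusted p = 0.00353, limma) and that between D5 and ESC 0.56 (SE 0.12, adjusted p = 0.0434, limma). The difference between D10 and D5 was 0.40, with a 95% interval of 0.09 to 0.72, and did not pass (adjusted p = 0.342, limma). The D5 call is weak: leaving out any 1 of the 6 ESC and D5 arrays took the adjusted p to between 0.0525 and 0.150 (limma). Of the 10 genes, only Cdkn1a is in the authors' deposited table of 461 selected probe sets, which holds 1.6% of all probe sets. That selection was made from these same arrays, and it also holds 13 of the 20 fibroblast markers.

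RefSeq promoter windows (GRCm38.p6, 250 bases before to 50 after an annotated start) were at hand for 7 of the 10 genes, Trp53inp1, Zmat3 and Perp being the others. They were searched for the p53 half-site, a 10-base pattern that allows the same letters on both strands, though a single match need not read the same on both. An exact half-site was found in 4 of the 10 windows of these genes, and in 8.36% of all 32851 windows. A full site, meaning 2 half-sites at most 1 base apart with at most 2 mismatches in all, was found in 3 of them, and in 1.78% of all windows. The matches are given in capitals, because Cdkn1a, Ccng1 and Mdm2 rose in D10 while Bax did not pass. All lie before the annotated start.
Cdkn1a, chr17:29090891-29090962, plus strand: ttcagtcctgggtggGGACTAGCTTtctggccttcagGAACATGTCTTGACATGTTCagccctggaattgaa
Ccng1, chr11:40755447-40755496, minus strand: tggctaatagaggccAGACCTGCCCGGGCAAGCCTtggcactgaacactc
Mdm2, chr10:117710920-117710959, minus strand: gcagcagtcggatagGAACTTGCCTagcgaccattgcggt
Bax, chr7:45467064-45467125, minus strand: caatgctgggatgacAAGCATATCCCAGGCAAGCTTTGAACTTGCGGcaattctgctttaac
In Cdkn1a the longer run in capitals is a full site from 51 to 32 bases before the upstream of its annotated starts, with 1 mismatch, and the shorter run is a lone half-site. The Ccng1 site, 195 to 176 bases before the start, also has 1 mismatch. Mdm2 has a lone half-site. In Bax the capitals cover a pair of overlapping full sites, with 1 and 2 mismatches. The windows of Phlda3, which rose in D10, and of Sesn2 and Bbc3, which did not pass, held no match, nor did the window at the downstream start of Cdkn1a. Sequence outside the windows was not searched, so any of these genes may have sites elsewhere. A match is a run of letters, not a measured binding site, and these data hold no measurement of p53 binding.

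Mdm2 showed another pattern. Its values were 8.33, 8.33 and 8.37 in D10, 8.26, 8.40 and 8.37 in D5, and 7.74, 7.79 and 7.75 in ESC. The D10 and D5 arrays overlapped, and all lay above the ESC arrays. Mdm2 was higher by 0.58 in D10 (SE 0.09, adjusted p = 0.00414, limma) and by 0.58 in D5 (SE 0.08, adjusted p = 0.00525, limma) than in ESC. D10 and D5 differed by 0.00, with a 95% interval from -0.19 to 0.20. The SD of Mdm2 was 0.02 in D10, 0.07 in D5 and 0.02 in ESC, and its SE against ESC in D10 was the smallest of the 5 genes that rose there. Its call in D5 was the only 1 of the 3 to hold in all 16 alternative analyses (highest adjusted p = 0.0289, limma).

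Perp encodes a membrane protein of desmosomes that takes part in p53-dependent apoptosis. It was measured at 6.68, 6.43 and 6.72 in D10, at 6.42, 6.49 and 6.51 in D5, and at 5.94, 6.06 and 5.87 in ESC. As for Mdm2, the D10 and D5 arrays overlapped above the ESC arrays. The rise was 0.61 in D10 (SE 0.11, adjusted p = 0.0107, limma) and 0.52 in D5 (SE 0.10, adjusted p = 0.0250, limma). The D5 call was lost without ESC replicate 1 or 3 or without any 1 of the D5 arrays (adjusted p = 0.0700 to 0.102, limma). The difference between D10 and D5 was 0.09, with a 95% interval from -0.16 to 0.34.

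Ccng1 encodes cyclin G1, which recruits a phosphatase to Mdm2. Its values were 9.88, 9.80 and 9.77 in D10, 9.55, 9.27 and 9.62 in D5, and 9.16, 9.26 and 9.18 in ESC. The 3 groups did not overlap, although the lowest D5 array lay just above the highest ESC array. Ccng1 rose by 0.61 in D10 over ESC (SE 0.12, adjusted p = 0.0137, limma), a call lost without D10 replicate 2 (0.62, adjusted p = 0.0768, limma). The D5 difference of 0.28 did not pass (SE 0.10, adjusted p = 0.210, limma), and neither did that of 0.33 between D10 and D5 (SE 0.12, adjusted p = 0.355, limma).

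Phlda3, a pleckstrin-homology protein that restrains the kinase AKT, read 7.73, 7.63 and 7.70 in D10, 7.48, 7.54 and 7.41 in D5, and 7.09, 7.31 and 7.17 in ESC. No 2 groups overlapped, and the order was the same as for Cdkn1a and Ccng1. Phlda3 was 0.49 higher in D10 than in ESC (SE 0.10, adjusted p = 0.0172, limma). This call was lost without ESC replicate 1, ESC replicate 3 or D10 replicate 2 (adjusted p = 0.0558, 0.0579 and 0.0652, limma) and in a fit of the D10 and ESC arrays alone (adjusted p = 0.0536, limma). In D5 the difference from ESC was 0.29 (SE 0.09, adjusted p = 0.128, limma), which did not pass.

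**Figure D1:**
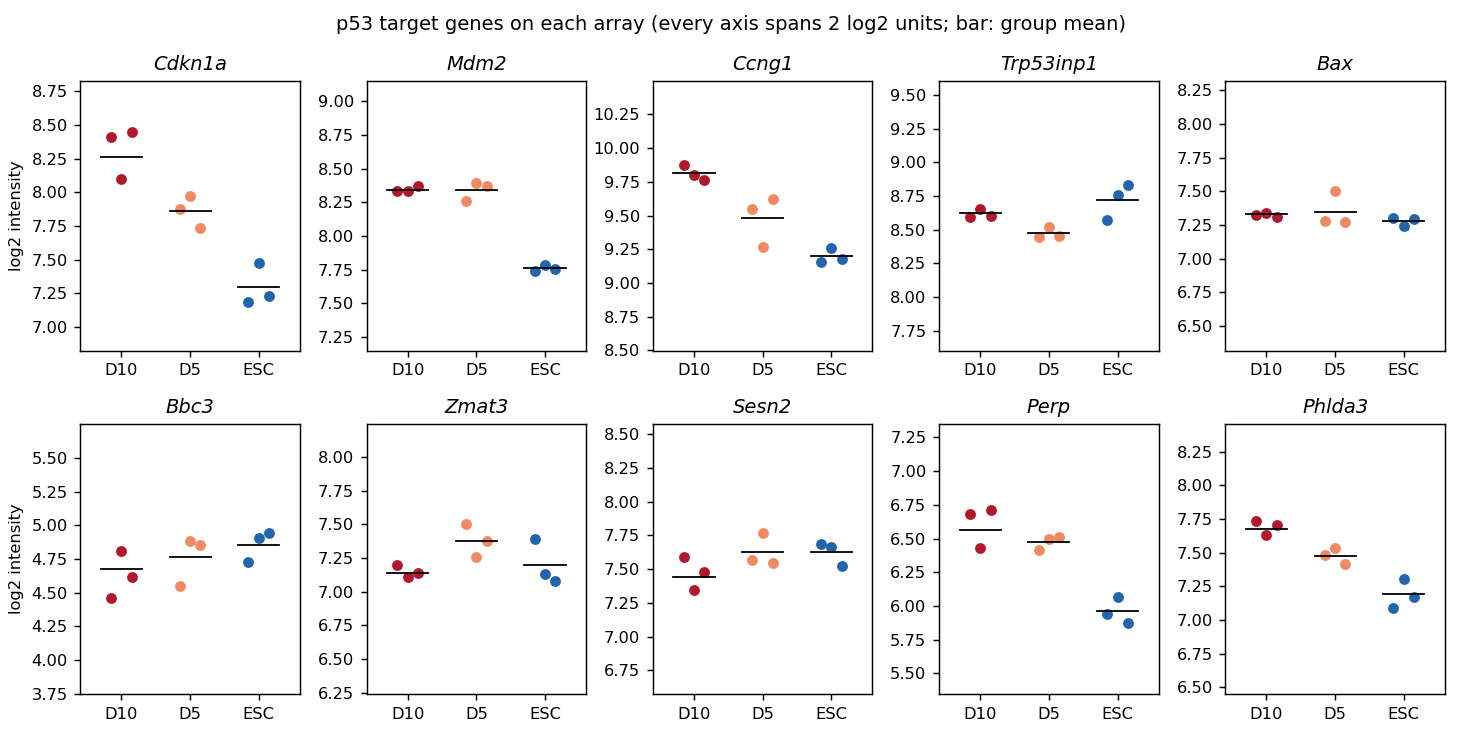
Log2 intensity of each of the 10 p53 target genes on every array (points; replicates 1 to 3 from left to right within a group), with D10, D5 and ESC side by side and a bar at the group mean, for D10 with replicates 1 and 3 averaged first. Cdkn1a, Ccng1 and Phlda3 step down across the groups without overlap, Mdm2 and Perp overlap between D10 and D5 and are lower in ESC, and the other 5 genes stay within 0.25 of ESC on average.

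The other 5 genes include Bax and Bbc3, which act directly in cell death. Bax forms pores in the mitochondrial membrane, and its values were 7.32, 7.34 and 7.31 in D10, 7.28, 7.50 and 7.27 in D5, and 7.30, 7.24 and 7.29 in ESC. All D10 arrays lay above all ESC arrays, yet the difference was only 0.05, with a 95% interval from -0.18 to 0.27. Bbc3 (PUMA), a BH3-only activator of Bax, read 4.46, 4.81 and 4.61 in D10, 4.55, 4.88 and 4.85 in D5, and 4.73, 4.90 and 4.94 in ESC. The groups of Bbc3 overlapped, and its difference between D10 and ESC of -0.18 had an interval from -0.50 to 0.13. Bbc3 was the nearest of the 10 to background, where array signals are compressed.

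Trp53inp1, a stress-induced nuclear protein that promotes p53 phosphorylation, had 8.59, 8.65 and 8.60 in D10, 8.44, 8.52 and 8.45 in D5, and 8.57, 8.76 and 8.83 in ESC. Its D5 arrays lay below all ESC arrays, but the difference of -0.25 did not pass (unadjusted p = 0.0230, adjusted p = 0.201, limma). Zmat3, an RNA-binding zinc finger protein, read 7.20, 7.11 and 7.14 in D10, 7.50, 7.25 and 7.38 in D5, and 7.39, 7.13 and 7.08 in ESC. D10 was below D5 on every array, by 0.24 on average (95% interval -0.51 to 0.04), while ESC overlapped both. Sesn2 encodes sestrin 2, a leucine sensor that restrains mTORC1. It read 7.59, 7.35 and 7.48 in D10, 7.57, 7.77 and 7.55 in D5, and 7.68, 7.66 and 7.52 in ESC, with all groups overlapping. The intervals of these 5 genes against ESC reached no further than -0.50 and 0.27 in D10, and -0.45 and 0.42 in D5.

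**Figure D2:**
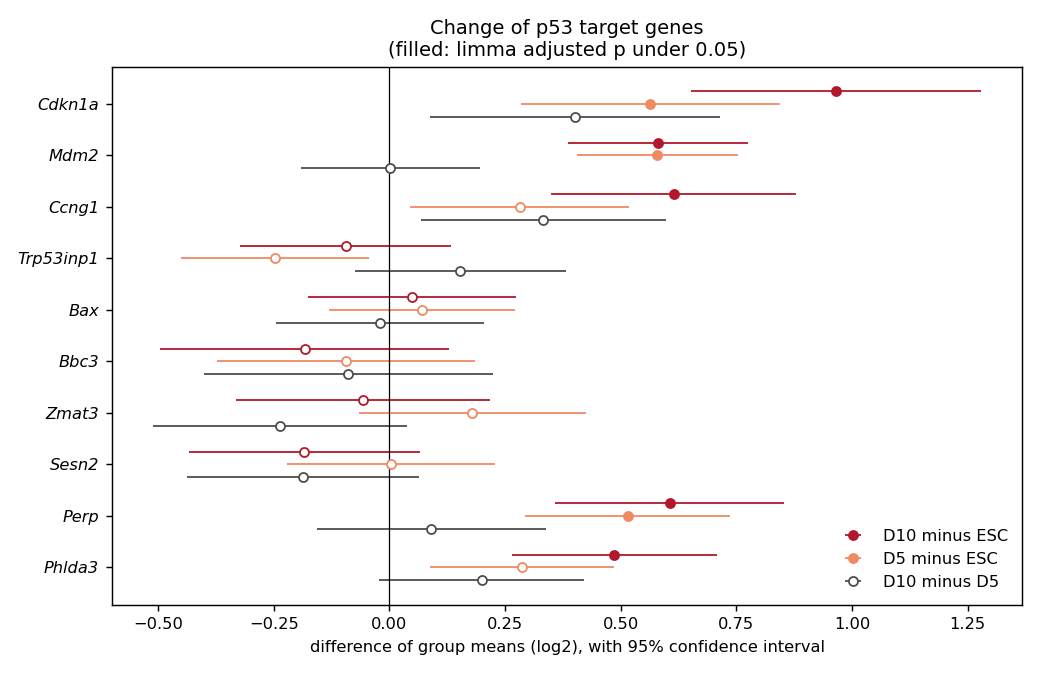
Difference of group means on the log2 scale (x axis) for each of the 10 genes, as D10 minus ESC, D5 minus ESC and D10 minus D5, with 95% confidence intervals from limma; filled points passed an adjusted p of 0.05. Filled points are found for Cdkn1a, Mdm2, Ccng1, Perp and Phlda3 in D10 and for Cdkn1a, Mdm2 and Perp in D5, and every point of D10 minus D5 is open.

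Among themselves, the 10 genes fell on both sides of 0. Against ESC, 6 differences were positive and 4 negative in D10, and 8 were positive and 2 negative in D5. Their median was 0.27 in D10, beside -0.02 over all probe sets, and 0.23 in D5, beside -0.01. The order of means was D10 over D5 over ESC in exactly the 5 genes that passed in D10, and their differences D10 minus D5 ran from 0.00 in Mdm2 and 0.09 in Perp to 0.33 in Ccng1 and 0.40 in Cdkn1a. Between D10 and D5 no gene passed, and at an unadjusted p under 0.05 Cdkn1a and Ccng1 were higher in D10, while 5.58% of all probe sets were higher and 4.17% lower. In this comparison 0.194% of all probe sets passed as higher and 0.0208% as lower. By array, 6 of the 10 genes had all D10 values above all ESC values and 0 had all below, where 14.9% and 16.4% of all probe sets did. For D5 against ESC 5 were entirely above and 1 entirely below, where 10.7% and 11% of all probe sets were. For D10 against D5 4 were above and 1 below, with 9.87% and 8.84% of all probe sets. Both comparisons with ESC share the ESC arrays, so that the differences in D10 and D5 are not independent of each other.

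The mRNA of p53 itself did not pass. Trp53 read 9.11, 8.97 and 9.15 in D10, 9.02, 9.15 and 9.12 in D5, and 9.36, 9.08 and 9.10 in ESC, with overlapping groups. Its difference from ESC was -0.13 in D10 (SE 0.11, adjusted p = 0.605, limma) and -0.08 in D5 (SE 0.10, adjusted p = 0.768, limma). Since p53 is controlled mainly through the stability and modification of the protein, its mRNA does not measure its activity.

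Of 21 regulators of p53, 5 were lower in D10 than in ESC and none was higher (6 lower and 1 higher at an unadjusted p under 0.05). The 5 were the damage kinase genes Chek2, Prkdc, Atm and Chek1, and Mdm4, a relative of Mdm2 that blocks the activation domain of p53. Over all probe sets 3.33% passed as lower in D10, and 10.7% were lower and 10.4% higher at an unadjusted p under 0.05. Chek2 read 6.67, 6.62 and 6.63 in D10, 6.83, 6.85 and 6.53 in D5, and 7.47, 7.21 and 7.35 in ESC. It was lower in both lines, by 0.71 in D10 (adjusted p = 0.0104, limma) and by 0.60 in D5 (adjusted p = 0.0239, limma). Chek2 was the only regulator to pass in D5, where 1.5% of all probe sets passed as lower. At an unadjusted p under 0.05, 5 regulators were lower and 1 higher in D5, beside 8.25% and 8.31% of all probe sets. Mdm4 stood at 7.62, 7.39 and 7.66 in D10, 7.81, 7.94 and 7.77 in D5, and 7.97, 8.07 and 8.14 in ESC. No groups of Mdm4 overlapped, in the opposite order to Cdkn1a, and it fell by 0.55 in D10 (SE 0.11, adjusted p = 0.0173, limma), while its D5 difference of -0.22 did not pass. In D10, Prkdc, the catalytic subunit of the DNA-dependent kinase, fell by 0.60, Atm by 0.48 and Chek1 by 0.46 on the log2 scale (adjusted p = 0.0263, 0.0250 and 0.0173, limma). These calls rest on few arrays: none of the regulators passed in D10 without D10 replicate 2, 1 without ESC replicate 3 and 2 without ESC replicate 1. The D5 call of Chek2 was lost without ESC replicate 1 or 3 or D5 replicate 1 or 3.

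**Figure D3:**
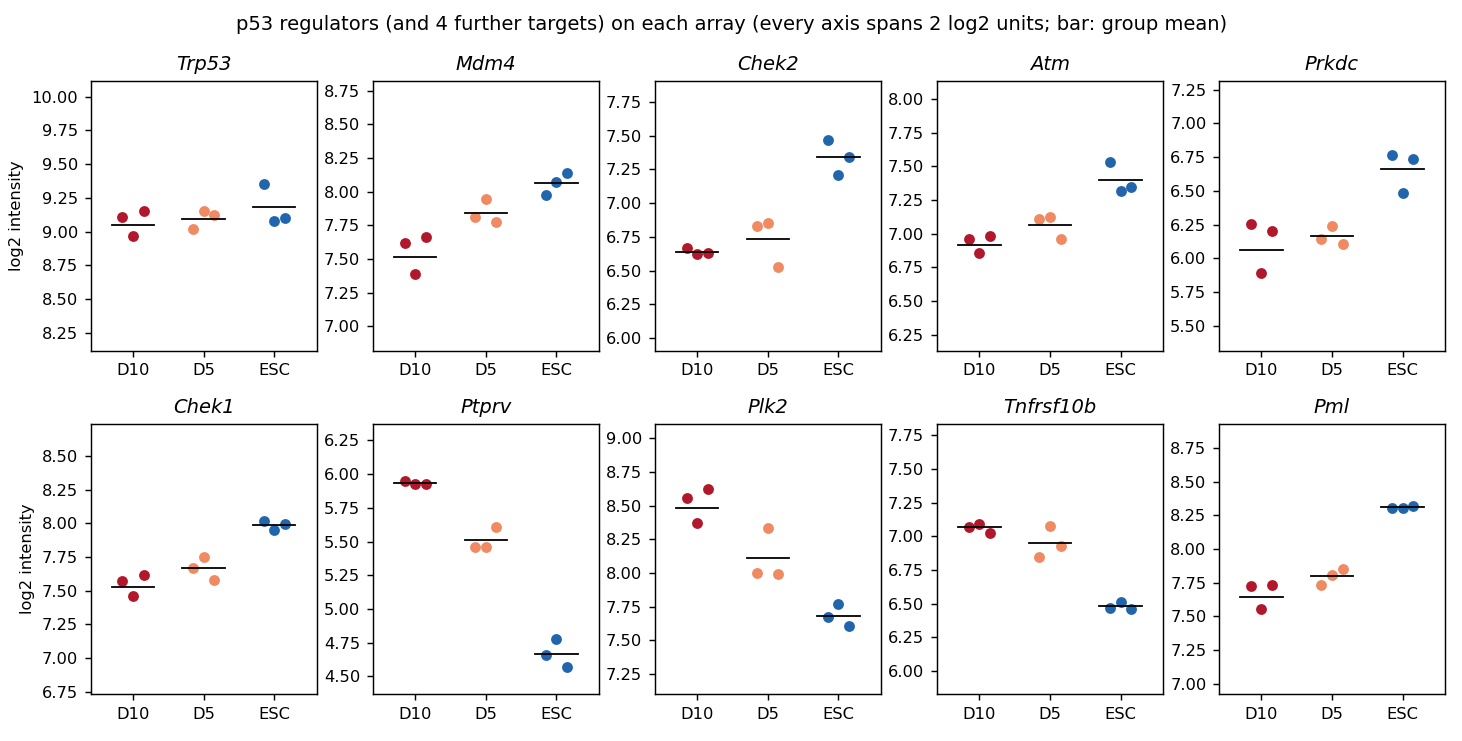
Log2 intensity on every array (points, replicates 1 to 3 from left to right) of 6 p53 regulators, Trp53, Mdm4, Chek2, Atm, Prkdc and Chek1, and of 4 further p53 targets, Ptprv, Plk2, Tnfrsf10b and Pml, in D10, D5 and ESC, with a bar at the group mean. Trp53 overlaps between groups, the other 5 regulators are lower in D10 than in ESC on every array, and of the targets Ptprv, Plk2 and Tnfrsf10b are higher and Pml lower.

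Further p53 targets moved in both directions. Of 43 further measured targets 5 were higher in D10 than in ESC, 5 were lower and 33 did not pass, and the median difference was 0.06. At an unadjusted p under 0.05, 10 were higher and 8 lower. Over all probe sets 5.32% passed as higher and 3.33% as lower, and 10.4% and 10.7% did at an unadjusted p under 0.05. The largest rise was that of Ptprv, a receptor tyrosine phosphatase, which read 5.95, 5.93 and 5.93 in D10, 5.46, 5.46 and 5.61 in D5, and 4.66, 4.77 and 4.57 in ESC. It was 2.41-fold higher in D10 than in ESC (SE 0.10 on the log2 scale, adjusted p = 0.000186, limma), and no 2 groups overlapped. Plk2, a polo-like kinase, rose by 0.80, and the death receptor gene Tnfrsf10b by 0.59 (adjusted p = 0.00730 and 0.00662, limma). Pml, the scaffold of nuclear bodies, which interferon also induces, fell by 0.67 (adjusted p = 0.00281, limma). The other 6 calls, named after their values were seen, were higher Dcxr (0.50) and Ak1 (0.37) and lower Epha2 (-0.45), Ddb2 (-0.42), Gadd45a (-0.42) and Bid (-0.39). Gadd45a, a growth arrest and repair gene that p53 induces after damage, thus moved against Cdkn1a.

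In D5, 2 of these 43 targets were higher than in ESC, Ptprv (0.84) and Tnfrsf10b (0.47). The 3 that were lower were Epha2 (-0.63), Pml (-0.51) and Zfp365 (-0.47), of which Epha2 and Zfp365 were named after their values were seen. The median was -0.03, and 38 did not pass. At an unadjusted p under 0.05, 7 were higher and 5 lower in D5. Over all probe sets 2.36% passed as higher and 1.5% as lower in D5, and 8.31% and 8.25% did at an unadjusted p under 0.05. Between D10 and D5 none passed in limma, where 6 were higher and 2 lower at an unadjusted p under 0.05. Over all probe sets the shares at this unadjusted threshold were 5.58% and 4.17%. In D10 against ESC, 2 were higher and 2 lower without D10 replicate 2, and 2 were lower without ESC replicate 1, ESC replicate 2 or D5 replicate 1, and 3 without ESC replicate 3 or D5 replicate 3. In D5 against ESC, 1 was higher without any 1 of the ESC arrays or D5 replicate 2 or 3, and 1 was lower without ESC replicate 3 or D5 replicate 1.

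p21 is known to lower many cell cycle genes by keeping the retinoblastoma family active. Of 22 such genes 6 were lower in D10 than in ESC and none was higher (14 lower and none higher at an unadjusted p under 0.05), with a median of -0.30. By sign, 18 of the 22 differences in D10 were negative and 4 positive. Over all probe sets 3.33% passed as lower in D10, and 10.7% were lower at an unadjusted p under 0.05. The spindle checkpoint kinase Bub1b fell by 0.53, topoisomerase II alpha (Top2a) by 0.52, the transcription factor Mybl2 by 0.52 and the replication helicase subunit Mcm6 by 0.47 (adjusted p = 0.0109, 0.0149, 0.00849 and 0.0151, limma). In D5 3 of the 22 were lower and none higher (13 lower and none higher at an unadjusted p under 0.05), with a median of -0.23, where 1.5% of all probe sets passed as lower and 8.25% were lower at an unadjusted p under 0.05. These were Top2a (-0.51), Mcm6 (-0.40) and Mcm5 (-0.33), the last named after its value was seen. Without D10 replicate 2 none of the 22 passed in D10, and without any 1 of the ESC or D5 arrays 0 or 1 passed in D5. Of the 10 pluripotency markers 4 were lower in D10 and 5 in D5, and their summed linear intensity ran from 8477 to 8675 in D10, 8753 to 9350 in D5 and 11363 to 11953 in ESC. Without D10 replicate 2 the count was 2 in D10 and 3 in D5. In D5 it was also 3 without D5 replicate 2, 1 without D5 replicate 1, D5 replicate 3 or ESC replicate 2, 2 without ESC replicate 3 and 0 without ESC replicate 1. The 4 in D10 were Fgf4 (-0.81), Tdgf1 (-0.71), Dppa5a (-0.47) and Sox2 (-0.43). Whether p21 or a lower share of ESC-like cells has a part in the cell cycle values was not tested.

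Bax and Bbc3 belong to the BCL2 family of apoptosis regulators. Of 13 other members of the family, of which Bid and Pmaip1 are also counted among the further p53 targets, 1 rose in D10, the anti-apoptotic Bcl2l1 (BCL-XL), by 0.46 (adjusted p = 0.0159, limma), and 1 fell, the BH3-only gene Bid, by 0.39 (adjusted p = 0.0388, limma). Over all probe sets 5.32% passed as higher and 3.33% as lower in D10. In D5 none passed in limma (1 higher and 2 lower at an unadjusted p under 0.05, beside 8.31% and 8.25% of all probe sets). Bcl2l1 did not pass in D10 without D10 replicate 2 or ESC replicate 3, and Bid did not without any 1 of the ESC arrays or D5 replicate 1 or 2. The medians of the 13 were -0.07 in D10 and -0.04 in D5.

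The values of the marker lists stand beside these changes. Fibroblast markers had a median difference from ESC of 1.43 in D10 and 0.83 in D5, and the difference of Cdkn1a, the most changed of the 10 p53 target genes in D10, was 0.97 and 0.56. Thy1 rose by 1.99, Postn by 1.75, Col3a1 by 1.66 and Col1a2 by 1.66 in D10. Between D10 and D5, 3 of the 20 fibroblast markers were higher in D10, Pdgfra (0.79), Col1a2 (0.77) and Thy1 (0.71), where 0.194% of all probe sets passed as higher. None of the 20 passed in this comparison without D10 replicate 2 or any 1 of the D5 or ESC arrays, and 1 passed without D10 replicate 1. Of 6 endothelial markers, Kdr (0.62) and Cdh5 (0.52) were higher and Tek (-1.08) was lower in D10 than in ESC. Over all probe sets 5.32% passed as higher and 3.33% as lower there. Cdh5 and Kdr were below background in ESC and read 3.74 to 4.09 on the D10 arrays, so the size of their rises is uncertain. Neither passed without D10 replicate 2, ESC replicate 1 or ESC replicate 2, and Tek did not without D10 replicate 2. None of the 16 blood cell markers passed in either line in limma (0 higher and 1 lower at an unadjusted p under 0.05 in each). At that unadjusted threshold 10.4% of all probe sets were higher and 10.7% lower in D10, and 8.31% and 8.25% in D5.

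**Figure D4:**
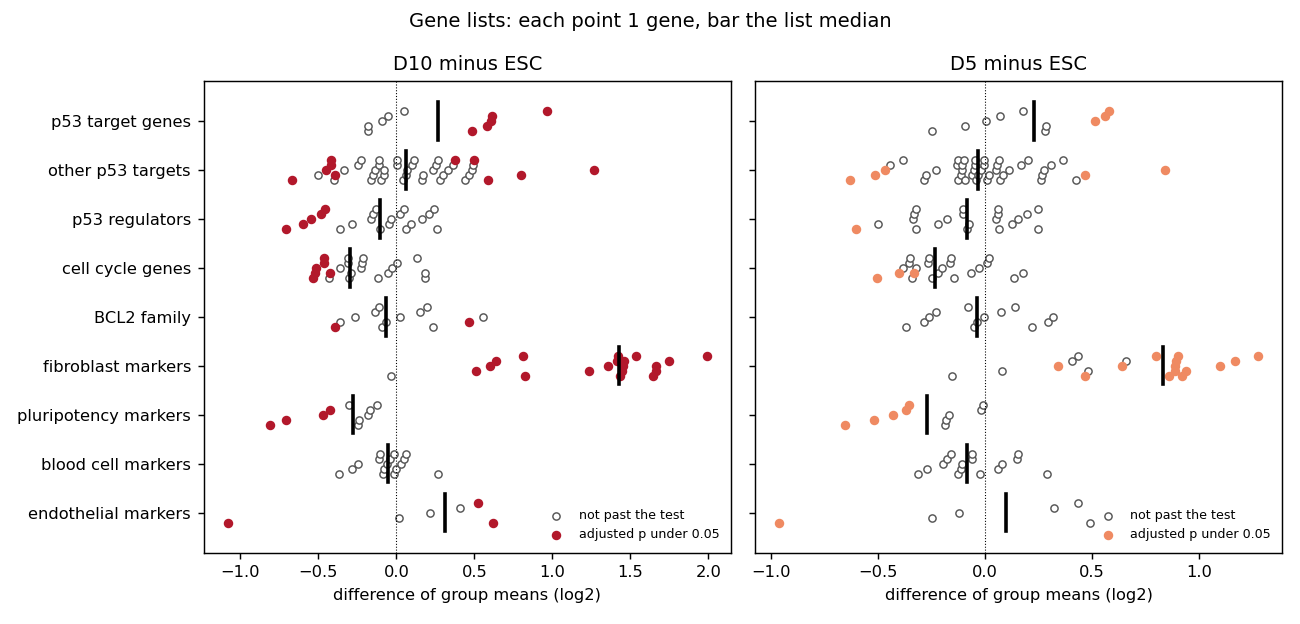
Difference of group means on the log2 scale (x axis) for every measured gene of the 9 lists (rows), as D10 minus ESC on the left and D5 minus ESC on the right; filled points passed an adjusted p of 0.05 in limma, and bars mark list medians. The BCL2 family row leaves out Bax and Bbc3. The p53 target genes have medians of 0.27 and 0.23, further p53 targets lie on both sides of 0, cell cycle genes lie mostly below it, and fibroblast markers have medians of 1.43 and 0.83.

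The genes whose pattern over the 8 samples was most like that of Cdkn1a were Serpinb9b, Dchs1, Vcl and Carhsp1. The root mean square distance between their centred log2 values and those of Cdkn1a was 0.07, 0.07, 0.08 and 0.09, among 15202 named genes above background. Their differences between D10 and ESC ran from 0.92 in Vcl, which encodes the focal adhesion protein vinculin, to 1.02 in Serpinb9b, of the serpin family of protease inhibitors. None of the 4 is among the p53 targets listed here, which are few among the 15202 genes searched.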

How the data were processed

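RNA of 9 samples was labelled by an Affymetrix whole-transcript protocol from 100 ng, per the labels' protocols. The authors deposited log2 values per probe set and, for 461 selected probe sets, linear intensity values, per the file headers and the values; 2 to the power of the log2 values gave the intensities to within 0.00135%. MAS5 is the only tool named, per the submitters' processing notes; how arrays were normalized to each other is not given there. Both deposited log2 tables were identical. Array medians ran from 4.45 to 4.53.

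Groups came from sample titles. Of 160 listed genes, 159 matched a probe set by symbol or RefSeq synonym, the one with the highest mean being used. The members and lists were chosen with earlier results of these data known. Differences were tested with limma 3.58.1 in R 4.3.3 (lmFit, eBayes) on 8 samples with a mean per group, 5 residual and 3.56 prior degrees of freedom, two-sided, with no filter, and adjusted over all 28853 probe sets. The fit was checked on simulated data. Named genes were the 10 members, up to 4 of each list with the largest called change in D10 against ESC, Trp53 and Mdm4, and the 4 nearest to Cdkn1a. Pou5f1, Fap, S100a4, Ptprc, Pdgfra, Chek1 and Pmaip1 were named as well, after their values were seen. Alternatives were another normalization, centring, a filter, another variance model, fewer or more samples, a replicate block and leaving out each array.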

Additional observations from a re-analysis of the deposited data

How the results depend on the processing

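Of the 10 genes, none changed direction in a called comparison in any of 16 alternatives (9 that each left out 1 array, and 7 others). In D10 against ESC, Cdkn1a, Mdm2 and Perp passed in all of them, Ccng1 in 15 and Phlda3 in 12; in D5 against ESC, Mdm2 passed in 16, Perp in 11 and Cdkn1a in 9. Leaving out 1 array gave 3 to 5 of the 10 genes higher in D10, 1 to 3 in D5 and 0 to 0 between D10 and D5, and 0 to 0 lower in each. For the further p53 targets it gave 2 to 5 higher and 2 to 5 lower in D10, 1 to 2 higher and 1 to 3 lower in D5, and 0 to 0 of each between D10 and D5. For all probe sets it gave 1188 to 2507, 457 to 1091 and 4 to 56 calls in the 3 comparisons, beside 2496, 1116 and 62. With 9 arrays counted separately, 8 further targets were higher in D10 against ESC and 1 in D10 against D5, and 3977 and 517 probe sets were called. With only the groups compared, 2 further targets were lower in D10 against ESC, and 1582 and 2 probe sets were called in these comparisons. An intensity trend with robust estimation gave 1695 calls in D5 against ESC and 268 in D10 against D5, where leaving out the lowest 30% of probe sets gave 154. Deviations of same-numbered arrays had correlations from -0.37 to 0.27. With 3 arrays per group these cannot tell whether the numbers pair the samples. The replicate block gave 8 further targets higher in D10 against ESC and 193 probe sets called in D10 against D5. With this block, Cdkn1a in D5 against ESC had an adjusted p of 0.0764 (limma). With 9 arrays counted separately, as also in the replicate block, D10 replicates 1 and 3 enter as 2 samples, where the main fit has 1. The cause of these shifts was not tested. Each of the 10 genes has 1 probe set, so the planned choice of another probe set was not run. D10 without replicate 2 is 1 sample, assumed to vary like the other groups. Few arrays and signal near background limit what can be seen for Bbc3.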
